A study of Mus musculus with 3 samples.

Results

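CA1 pyramidal nuclei that carried many immediate early transcripts were set against CA1 nuclei of the same mouse that carried few. By the rule, 2892 of the 27426 deposited nuclei barcodes were CA1 nuclei, 1352 in mouse 1, 930 in mouse 2 and 610 in mouse 3. Such a nucleus had at least 500 genes. It also had at least 3 of the 6 CA1 genes Stac, Mpped1, Fibcd1, Gm2115, Matn2 and Col11a1, summing to 5 or more per 10000 UMIs (unique molecular identifiers, 1 per captured transcript), and Gad1 plus Gad2, the enzymes of GABA synthesis, at no more than 1 per 10000. An immediate early score was the sum of 8 genes (Nr4a1, Nr4a2, Nr4a3, Fos, Fosb, Arc, Egr1 and Junb) per 10000 UMIs. Within each mouse, nuclei at or above the 80th percentile with a score above 0 were called high, 579 in all (271, 186 and 122 in mice 1, 2 and 3), and nuclei at or below the median were called low, 1446 in all (676, 465 and 305). The sides were chosen by measured expression, so the 8 score genes are given as a description only.

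The study sequenced nuclear RNA of sorted hippocampal nuclei on a droplet platform. The 3 libraries used here come from 3 adult female mice of genotype Scn8aD/+, heterozygous for the D allele of a voltage-gated sodium channel gene, and their titles place them after onset. No control animals were analysed here, so all contrasts lie between nuclei of the same 3 mutant mice. Each mouse is a batch of its own, and effects of mouse and of batch cannot be told apart.

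Immediate early genes are transcribed within minutes of strong synaptic input, without new protein synthesis, and most of them encode transcription factors. Calcium entry activates kinases that act on factors already bound to DNA, among them CREB and SRF, and the induced factors then act on later genes that encode secreted peptides, synaptic proteins and kinases. In CA1, the output field of the hippocampus proper, these genes are widely read as a record of recent firing, and seizures are known to induce them broadly.

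CREB binds the cyclic AMP response element, whose full form has the letters TGACGTCA. It was searched for on both strands of the 250 bases before each gene start that RefSeq gives for GRCm38.p6 (mm10), along with the AP-1 element of Fos and Jun proteins (TGANTCA), the element of Nr4a proteins (AAAGGTCA) and that of Egr proteins (GCGTGGGCG). No motif's letters contain another's. Of the 13641 genes tested, 10241 had a promoter entry, and 3.11% of these held the full CREB element, 5.26% the AP-1 element, 1.05% the Nr4a element and 1.23% the Egr element. Among genes of secreted and synaptic proteins known to follow activity, 3 of 17 with an entry held the CREB element, namely Pcsk1, Plk2 and Scg2. Btg2 held it among 15 other immediate early genes, Dusp1 among 14 kinase feedback genes, and none of 6 score genes or 20 CREB, SRF and MEF2 genes did. The sites of Btg2, Pcsk1 and Scg2, whose values are given with the results, are printed 5′ to 3′ on the gene's strand with the element in capitals. They lie at chr1:134079303-134079332 on the minus strand, chr13:75089768-75089797 on the plus strand and chr1:79440076-79440105 on the minus strand, with the element starting 166, 78 and 68 bases before the gene start. A match describes the letters and is not a measured binding site.
Btg2: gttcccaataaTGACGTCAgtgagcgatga
Pcsk1: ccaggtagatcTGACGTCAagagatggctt
Scg2: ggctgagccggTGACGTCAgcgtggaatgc

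The level of the score differed widely between mice. Its median was 8.08 per 10000 UMIs in mouse 1, 1.22 in mouse 2 and 4.87 in mouse 3, and the 80th percentile lay at 12.04, 2.90 and 6.80. The median low nucleus of mouse 1, at 5.47, scored above the median high nucleus of mouse 2, at 4.09. In mouse 2, 325 of 930 nuclei had no score UMI at all, and 77 of its 186 high nuclei were high on 1 UMI. A low nucleus had a median of 10, 0 and 16 score UMIs in mice 1, 2 and 3, and a high one 21, 2 and 28. At the upper boundary the lowest score inside and the highest outside the high side were 12.05 and 12.01 in mouse 1, 2.91 and 2.90 in mouse 2, and 6.81 and 6.80 in mouse 3. At the lower boundary the highest low nucleus and the next one above were at 8.07 and 8.09, at 1.21 and 1.22, and at 4.87 and 4.87. The sides are ranges of a score and not cell types.

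**Figure D1:**
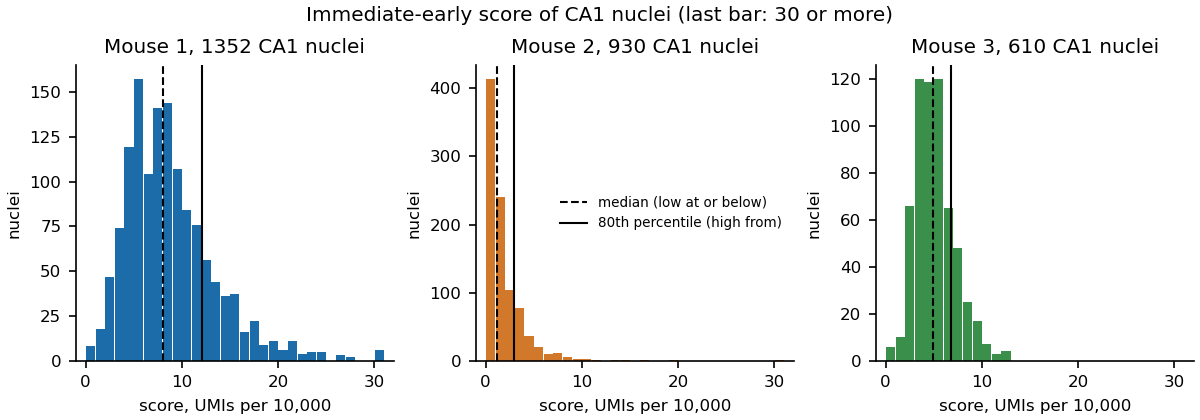
Histogram of the immediate early score (UMIs of the 8 genes per 10000 UMIs, 1 unit per bar) over the CA1 nuclei of each mouse, with the median and the 80th percentile as lines. Mouse 2 piles up near 0, with its 80th percentile at 2.90, while the 80th percentile of mouse 1 lies at 12.04. The last bar holds scores of 30 or more.

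The 3 Nr4a genes, orphan nuclear receptors induced early by calcium, made up most of the score. They gave 70.4%, 60.5% and 73.3% of the score UMIs of the high nuclei in mice 1, 2 and 3. Nr4a1 was at 192, 21.8 and 145 CPM (the usual depth-scaled level, here of UMIs summed over the nuclei of a side) in the low nuclei and at 430.0, 145 and 265 CPM in the high ones. Fos, partner of Jun in AP-1, was at 11.6, 1.03 and 15.1 CPM in low nuclei and 31.2, 8.00 and 39.0 CPM in high ones. Arc, whose protein acts at synapses on receptor trafficking, was at 49.5, 3.29 and 17.1 CPM in low and 155, 47.0 and 43.4 CPM in high nuclei. These gaps follow from the rule.

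Several other properties moved with the split. High nuclei were shallower, with a median of 13320 UMIs against 18581 in low nuclei of mouse 1, 3407 against 6253 in mouse 2 and 34244 against 46085 in mouse 3. Doublet scores marked 14.8%, 12.9% and 2.46% of high and 9.47%, 6.88% and 6.89% of low nuclei. The summed CA1 genes of the rule were 9.55, 10.5 and 11.7 per 10000 in high and 10.4, 10.9 and 12.5 in low nuclei, which describes the rule and is no test of it. Fibcd1, a common CA1 marker, was seen in 33.5%, 8.71% and 9.18% of CA1 nuclei, while Stac was seen in 73.0%, 66.5% and 93.1% and Mpped1 in 90.01%, 73.5% and 88.4%. A sum over 13 CA1 genes outside the rule was 41.1, 32.3 and 41.0 per 10000 in high and 38.6, 41.2 and 32.7 in low nuclei of mice 1, 2 and 3. It was thus lower on the high side of mouse 2 and higher in mice 1 and 3. In granule nuclei the sum was 24.6 to 28.3 over both sides. The part of depth and doublets in the results was tested only as far as the depth quartiles and the removal of marked nuclei go. Values within depth quartiles are given beside the groups of the 8-gene split.

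Each score gene could be tested once it was left out of the score, with nuclei split again by the other 7. All 8 were fitted higher in the high nuclei, but none passed edgeR's quasi-likelihood test at an adjusted p under 0.05, and 7 had an unadjusted p under 0.05. Over all genes, the fit without Nr4a2 in the score called 1 of 13557 (0.00738%) and the other 7 fits called 0 (0%). Fosb, a Fos family factor, came nearest: it was at 36.5, 2.27 and 13.1 CPM in low and 81.8, 4.07 and 31.2 CPM in high nuclei of mice 1, 2 and 3. Its log2 difference was 1.17 ± 0.14 (SE, n = 3 mice) with an edgeR adjusted p of 0.110, and from 0.00377 to 1.00 over the alternatives. Within each mouse the high side was higher, in mouse 2 on few UMIs (4.07 CPM in a high sum of 982797 UMIs).

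Egr1, a zinc finger factor, was at 43.7, 10.0 and 28.0 CPM in low and 93.6, 11.3 and 43.0 CPM in high nuclei, higher in 3 of 3 mice but by little in mouse 2. Arc, at 64.3, 15.7 and 21.7 CPM in low and 125.5, 17.6 and 31.3 CPM in high nuclei, showed the same order, as did Junb, an AP-1 member, at 27.9, 20.5 and 26.0 against 60.6, 20.9 and 29.5 CPM. In the 8-gene split, the median log2 ratio of CPM over all genes tested was 0.081, 0.176 and -0.056 in mice 1, 2 and 3. The mouse 2 ratios of Egr1, Arc and Junb, at 0.173, 0.164 and 0.025, did not exceed that median. Fos and the 3 Nr4a genes were not higher in every mouse. Fos was lower on the high side of mouse 2, at 1.97 against 5.04 CPM, and higher in mice 1 and 3. The high sum of mouse 2 held 1013667 UMIs in that split, so its Fos level rests on few UMIs. Nr4a3 was at 134, 21.4 and 124 CPM in low and 234, 10.9 and 118 CPM in high nuclei, so that only mouse 1 had the higher level on the high side, and its fitted log2 difference was 0.12 ± 0.22 (SE). Nr4a1 was at 230.3, 55.3 and 167.9 CPM in low and 337.5, 51.8 and 229.5 CPM in high nuclei, and Nr4a2 at 131, 21.5 and 57.2 against 249, 34.1 and 51.6 CPM. Within depth quartiles 6 of 8 had an unadjusted p under 0.05 and 3 were higher in 3 of 3 mice. Without mouse 2, Nr4a1, Fos, Fosb and Arc passed the test (adjusted p of 0.0401, 0.0445, 0.00377 and 0.00420 in edgeR), 4 of 8; over all alternatives the adjusted p of each reached 1.00.

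**Figure D2:**
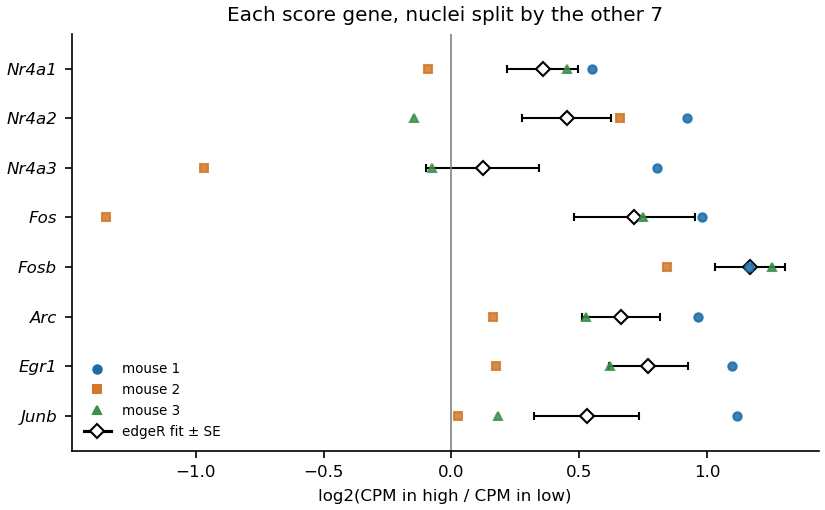
log2 ratio of CPM in high over low CA1 nuclei for each score gene when nuclei were split by the other 7 genes (points: mice, diamonds: edgeR fit with its SE). Points of mouse 2 lie below 0 for Nr4a1, Nr4a3 and Fos, while all points of mouse 1 lie above 0.

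With the score genes set aside, edgeR called 0 of 13641 genes between high and low nuclei (0% called). At an unadjusted p under 0.05 there were 625 genes higher (4.58%) and 367 lower (2.69%) on the high side. DESeq2 called 1 gene, Penk (0.00733%), and edgeR without mouse 2 called 42 (0.286%). The median log2 difference over all genes was 0.01, but 20.1% of genes were higher on the high side in 3 of 3 mice and 8.88% lower, which is the background for the counts that follow. None of the groups described next holds a gene called in this test, and their directions are given as values.

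Immediate early factors outside the score lay mostly on the high side. Of 19 tested, 13 had an unadjusted p under 0.05 on the high side (background 4.58%) and 0 on the low side. The list's median log2 difference was 0.70, and 11 were higher in 3 of 3 mice. Npas4, a neuron-specific factor that answers to calcium, was at 95.7, 8.22 and 50.9 CPM in low and 170.0, 18.0 and 101 CPM in high nuclei. It was higher in each mouse, by 0.91 ± 0.12 on the log2 scale (SE, n = 3 mice, edgeR adjusted p = 0.175). Egr2, which binds the same element as Egr1, rested on few UMIs: 1.88, 0.822 and 0.996 CPM in low and 6.90, 2.00 and 4.24 CPM in high nuclei, with 4 and 2 UMIs behind the values of mouse 2. Egr3 was at 62.5, 23.2 and 17.7 CPM in low and 128, 28.0 and 23.7 CPM in high nuclei, a fitted log2 difference of 0.64 ± 0.16 (SE). Jun, at 12.6, 15.4 and 19.8 against 24.5, 24.0 and 29.4 CPM, and Fosl2, at 38.0, 14.4 and 82.6 against 61.4, 21.0 and 95.6 CPM, both of the AP-1 family, were higher in every mouse too.

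Gadd45b and Gadd45g, linked to DNA demethylation in active neurons, had fitted log2 differences of 0.73 ± 0.16 and 0.78 ± 0.15 (SE). Nfil3, a basic leucine zipper repressor, was at 10.1, 4.11 and 17.7 CPM in low and 18.5, 8.00 and 26.9 CPM in high nuclei. Btg2, an antiproliferative gene whose promoter site is printed above, went with the score in mice 1 and 3 (15.9 and 11.7 CPM in low, 46.4 and 20.1 CPM in high nuclei) and against it in mouse 2 (4.52 against 3.00 CPM). Egr4 did likewise, at 14.2, 3.49 and 5.64 CPM in low and 41.6, 3.00 and 7.84 CPM in high nuclei. The low and high sums of mouse 2 held 22 and 3 UMIs of Btg2 and 17 and 3 of Egr4. Few UMIs thus decide both directions in mouse 2. Levels of Npas4, Fosl2, Gadd45b, Gadd45g and Nfil3 also climbed from low through the nuclei between the cuts to high in 3 of 3 mice, 5 of the list's 19 against 1.74% of all genes. When high and low were taken within quartiles of UMIs per nucleus, 11 of 19 had an unadjusted p under 0.05 on the high side (background 2.48%) and the list's median was 0.55.

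Genes of secreted and synaptic proteins showed the same order at a smaller size. Of 26 tested, 12 had an unadjusted p under 0.05 on the high side and 0 on the low side, with a median log2 difference of 0.41 and 13 higher in 3 of 3 mice. Penk, which encodes the precursor of enkephalin peptides, was at 5.91, 6.78 and 59.2 CPM in low and 18.5, 21.0 and 122 CPM in high nuclei. Its level in mouse 3 was far above that of the other mice on both sides. The log2 difference was 1.30 ± 0.15 (SE, n = 3 mice, edgeR adjusted p = 0.141, and from 1.83e-11 to 1.00 over the alternatives), and its p was the smallest of all genes. With the stricter CA1 gate, a sum of 10 or more per 10000, it was 0.30 (adjusted p = 0.859). Bdnf, a neurotrophin released with activity, was at 99.4, 99.2 and 494 CPM in low and 175, 144 and 827 CPM in high nuclei, a log2 difference of 0.66 ± 0.13 (SE). Nptx2, a secreted pentraxin that gathers AMPA receptors, was at 74.2, 47.3 and 204 against 168, 60.0 and 394 CPM, 0.85 ± 0.17 (SE) on the log2 scale. The high side of mouse 1 still lay below the low side of mouse 3 for Bdnf, Nptx2 and Penk, so for these genes mouse 3 stood above mouse 1 by more than the split within mouse 1.

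The peptide processing protease Pcsk1 was at 31.2, 22.2 and 79.6 CPM in low and 52.6, 36.0 and 116 CPM in high nuclei, 0.62 ± 0.11 (SE) on the log2 scale and higher in 3 of 3 mice. Scg2 and Vgf, cargo of dense-core vesicles, had fitted log2 differences of 0.62 ± 0.15 and 0.58 ± 0.13 (SE) and were higher in 3 of 3 mice as well. Not all members followed. Inhba, the activin A subunit, was at 19.2, 75.4 and 169 CPM in low and 29.5, 66.0 and 302 CPM in high nuclei, and Homer1, a postsynaptic scaffold with an activity-induced short form, at 564, 652 and 785 against 852, 642 and 1146 CPM; both were lower on the high side of mouse 2. Sorcs3, a sorting receptor, differed by 0.10 ± 0.21 (SE). Within depth quartiles 8 of 26 had an unadjusted p under 0.05 on the high side and the median was 0.37, but only 4 were then higher in 3 of 3 mice, against 11.7% of all genes.

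Kinases and phosphatases that feed back on the signal followed in part. Of 17 tested, 6 had an unadjusted p under 0.05 on the high side and 0 on the low side, and the median log2 difference was 0.22. Sik1, a kinase induced by cyclic AMP that restrains CREB coactivators, was at 5.21, 2.26 and 7.30 CPM in low and 15.5, 5.00 and 14.0 CPM in high nuclei, 1.21 ± 0.23 (SE) on the log2 scale. Pim1, another inducible kinase, had a fitted log2 difference of 1.70 ± 0.34 (SE) on 5 to 41 UMIs a sum. Dusp1 and Dusp14, phosphatases that act on MAP kinases, differed by 1.07 ± 0.27 and 0.64 ± 0.16 (SE). The factors and cofactors that lie upstream of induction did not stand apart: of 24 CREB, SRF and MEF2 genes, 2 had an unadjusted p under 0.05 on the high side, Kdm6b (a histone demethylase, 0.50 ± 0.10, SE) and Elk4 (an SRF partner, 0.33 ± 0.12, SE), and the median was 0.04. Within depth quartiles 4 of 17 kinase feedback genes and 3 of 24 CREB, SRF and MEF2 genes had an unadjusted p under 0.05 on the high side, with medians of 0.24 and -0.00038. When each nucleus was thinned to 1000 UMIs and scored anew, 17 of 20 named genes of these 4 lists had a smaller log2 difference, and their median went from 0.62 to 0.22. The sides changed as well, to 298, 144 and 248 high and 1051, 781 and 362 low nuclei in mice 1, 2 and 3. The 2 medians therefore come from unlike splits, and the part of depth in the drop was not tested. Some of the 20 genes were also named after their values in the first split were seen, so smaller values in a new split are no test of thinning. Nptx2 was then at 0.24, Npas4 at 0.32, Bdnf at 0.22, Scg2 at 0.0030 and Homer1 at 0.057.

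**Figure D3:**
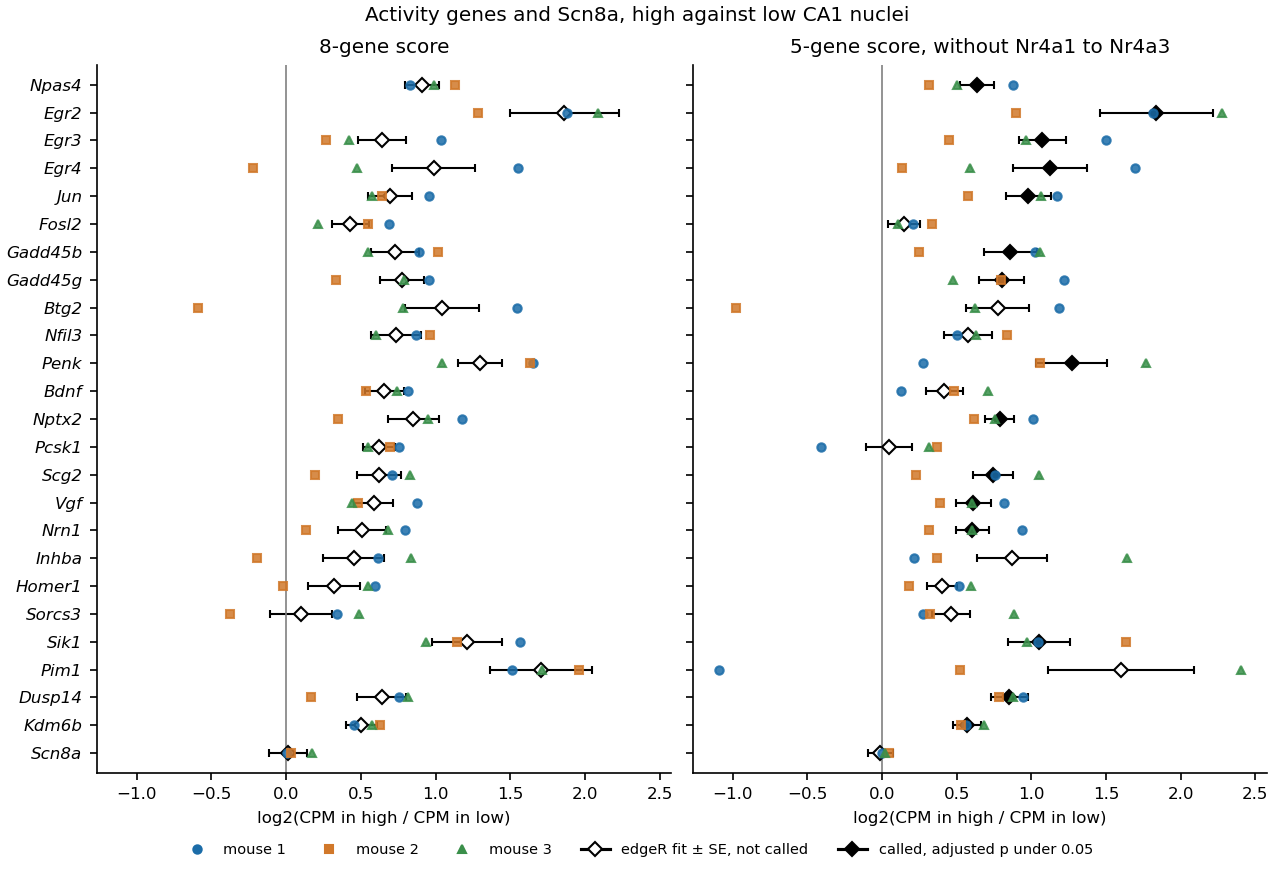
log2 ratio of CPM in high over low CA1 nuclei for 24 activity genes and Scn8a, split by the 8-gene score (left) and by the 5 score genes other than Nr4a1 to Nr4a3 (right). Points are mice and diamonds edgeR fits with their SE, filled where the gene was called; none is filled on the left, and Egr3, Jun and Nptx2 are among those filled on the right, while Scn8a lies at 0.02 and -0.01.

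The 3 Nr4a genes and the other 5 score genes gave unlike splits. With Nr4a1, Nr4a2 and Nr4a3 alone as the score, edgeR again called 0 of 13573 genes (0% called; at an unadjusted p under 0.05, 2% higher and 2.06% lower). With Fos, Fosb, Arc, Egr1 and Junb alone, 272 of 13697 were called (1.99%), 114 higher (0.832%) and 158 lower (1.15%), and at an unadjusted p under 0.05 there were 7.65% higher and 6.86% lower. That split shared 147, 106 and 66 high nuclei with the 8-gene split, and in mouse 2, where 128 of 186 high nuclei had 1 UMI of the 5 genes, low meant none. The Nr4a genes were not called there: Nr4a1 differed by 0.26 ± 0.12, Nr4a2 by 0.25 ± 0.12 and Nr4a3 by 0.19 ± 0.13 on the log2 scale (SE, edgeR adjusted p = 0.377, 0.385 and 0.584). Both splits use the same nuclei, so they are not independent of each other. The 272 calls rest on the comparison within mice: without the mouse as a block edgeR called 0. They became 37 with marked doublets removed, 88 without mouse 1 and 105 without mouse 3, of which 36, 66 and 79 were among the 272.

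By the 5-gene score, 9 of 19 immediate early factors rose and 0 fell, against 0.832% and 1.15% of all genes. Egr3 was at 52.1, 25.3 and 16.8 CPM in low and 147, 34.6 and 32.7 CPM in high nuclei, 1.07 ± 0.16 (SE, n = 3 mice, edgeR adjusted p = 0.00904). Jun rose from 12.4, 14.8 and 17.4 to 27.9, 22.0 and 36.3 CPM, 0.98 ± 0.15 (SE, adjusted p = 0.00921). Npas4, at 95.9, 8.22 and 58.0 against 176, 10.2 and 82.3 CPM, rose by 0.64 ± 0.11 (SE, adjusted p = 0.0188). Egr2, Egr4, Gadd45b, Gadd45g, Klf10 and Tiparp were the other 6. Each of the 9 was higher in 3 of 3 mice, a direction that 21.8% of all genes had. Fosl2 was at 0.15 ± 0.11 (SE) and was not called. The count of 9 became 0 without mouse 1, 5 without mouse 3, 3 within depth quartiles, 4 with DESeq2 and 2 with doublets removed.

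Of 26 secreted and synaptic genes, 7 rose and 0 fell: Nptx2, Nrn1, Penk, Plat, Rgs2, Scg2 and Vgf. Nptx2 was at 71.2, 48.3 and 208 CPM in low and 144, 73.9 and 351 CPM in high nuclei, 0.79 ± 0.10 (SE, adjusted p = 0.00555), and stayed called without any 1 mouse, within depth quartiles (1.08% of all genes called), with DESeq2 and with nuclei of other classes left out. Rgs2, which speeds the shut-off of G proteins, rose by 0.76 ± 0.12, and Nrn1, a neurite growth factor, by 0.60 ± 0.11 (SE). Plat, tissue plasminogen activator, rose by 0.77 ± 0.15 (SE). Bdnf was at 0.42 ± 0.12 and Pcsk1 at 0.05 ± 0.15 (SE), both not called, and Pcsk1 was lower on the high side of mouse 1. The count of 7 became 4 without mouse 1, 2 without mouse 3, 4 within depth quartiles and 1 with doublets removed. Of 17 kinase feedback genes, Dusp14 and Sik1 rose (0.85 ± 0.12 and 1.05 ± 0.21, SE), and of 24 CREB, SRF and MEF2 genes Kdm6b did (0.57 ± 0.10, SE). Scn8a, the channel gene that carries the D allele, was called by neither score. By the 8-gene score it was at 431, 395 and 444 CPM in low and 432, 405 and 500.4 CPM in high nuclei, and its counts hold both alleles.

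Most of the largest called differences by the 5-gene score among genes with 10 or more UMIs in each of the 6 sums lay outside the activity lists. Egr2, at 1.84 ± 0.38 (SE), did not meet that limit. Among the genes that met it and had the same direction in 3 of 3 mice, the highest fitted values were ETV3L (1.51 ± 0.23, SE), Pla2g7, a secreted phospholipase (1.39 ± 0.18), Cdk6, a cell cycle kinase (1.37 ± 0.17), Car12, a carbonic anhydrase (1.33 ± 0.22), and Lbh (1.29 ± 0.15). Penk followed at 1.27 ± 0.24 (SE), Nnat, an imprinted gene of the endoplasmic reticulum, at 1.23 ± 0.14, the glycine receptor subunit Glra1 at 1.20 ± 0.18, Clec18a at 1.15 ± 0.21 and Btg1, a relative of Btg2, at 1.14 ± 0.26. Nnat was at 103, 140.0 and 48.6 CPM in low and 339, 237 and 113 CPM in high nuclei. The low side of mouse 2 lay above the high side of mouse 3 for Nnat, while within each mouse the high side was higher.

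On the other side, Fyb2 (-2.11 ± 0.25, SE), Adamts2, a procollagen protease (-2.11 ± 0.34), Vwc2l (-1.92 ± 0.35), Tshz2, a zinc finger factor (-1.88 ± 0.21), Rxfp1, the relaxin receptor (-1.74 ± 0.17), Ccbe1 (-1.64 ± 0.23), Trabd2b (-1.62 ± 0.23), Il16 (-1.53 ± 0.20), Spock1, a matrix proteoglycan (-1.52 ± 0.21), and Cpne4, a calcium-binding copine (-1.49 ± 0.31), fell. Tshz2 was at 266, 165 and 396 CPM in low and 44.4, 79.4 and 118 CPM in high nuclei. Mouse 2 had the smallest fall for each of these genes but Rxfp1, whose fall was smallest in mouse 1.

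**Figure D4:**
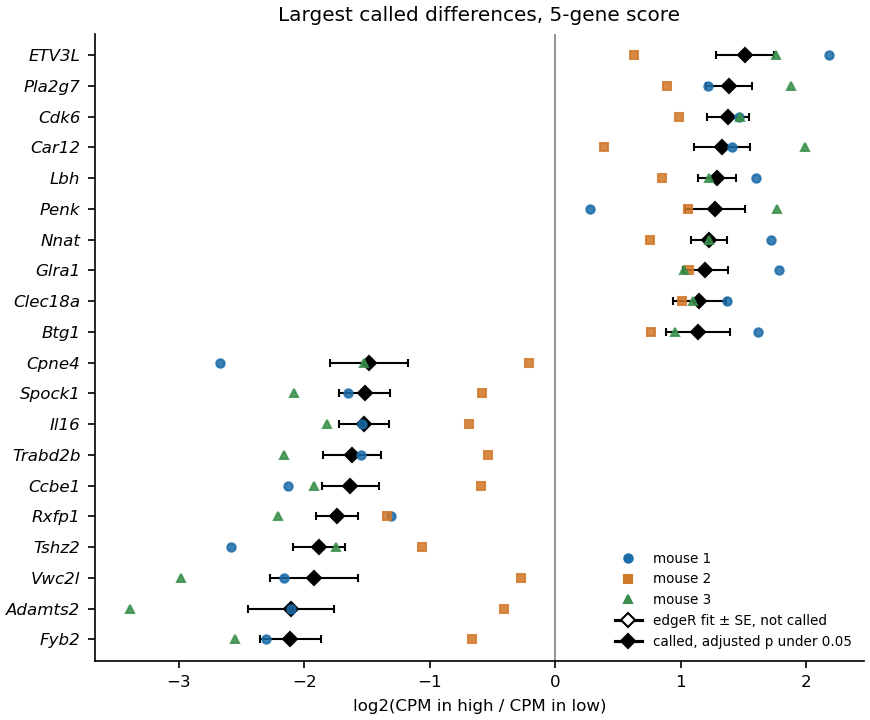
log2 ratio of CPM in high over low CA1 nuclei split by the 5-gene score, for the 10 highest and the 10 lowest fitted values among called genes with 10 or more UMIs in each of the 6 sums and the same direction in 3 of 3 mice (points: mice, diamonds: edgeR fit with its SE). All points of a gene lie on 1 side of 0, and mouse 2 lies nearest to 0 for most.

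Markers of neighbouring cell classes moved with the split by the 5-gene score. Of 7 CA2 and subicular markers tested, Amigo2, Fn1 and Tshz2 fell and 0 rose, and of 5 CA3 and mossy cell markers Calcrl, Cpne4 and Tspan18 fell and 0 rose, although Calcrl was level in mouse 2 (9.07 CPM in low, 9.43 CPM in high nuclei). The 8 CA2 and subicular markers summed to 3.96, 2.40 and 5.09 per 10000 UMIs in low and 1.09, 1.38 and 1.89 in high nuclei of mice 1, 2 and 3. Tshz2, whose fall is given above, made up most of the low sums, and 4 of the 8 genes were lower in 3 of 3 mice. By the 8-gene score the sum of the 8 markers went down in mice 1 and 3 (3.84 to 1.24 and 4.36 to 2.69) and up in mouse 2 (1.52 to 3.85). Granule cell markers by the 8-gene score were at 1.26, 3.31 and 2.06 in low and 2.73, 4.47 and 2.78 in high nuclei. By the 5-gene score they were at 1.46, 3.67 and 2.49 in low and 1.83, 4.27 and 2.48 in high nuclei. Of the 7 tested there, 0 were called and 6 were higher in 3 of 3 mice, with a median log2 difference of 0.44. Astrocyte markers by the 5-gene score were at 16.8, 11.7 and 22.4 in low and 27.3, 13.0 and 28.7 in high nuclei. Of the 3 that passed the filter 0 were called, but all 3 were higher in 3 of 3 mice, with a median log2 difference of 0.87. All 3 had an unadjusted p under 0.05 in edgeR on the high side (background 7.65%). By the 8-gene score the sum went from 17.9, 14.2 and 24.6 in low to 23.8, 7.74 and 25.8 in high nuclei, down in mouse 2. In each sum of the 8-gene split, Gpc5 made up nearly all of the astrocyte list. In that split the summed list is therefore mainly the level of Gpc5, and whether that RNA came from astrocytes or from the CA1 nuclei was not tested. Inhibitory neuron markers by the 5-gene score were at 0.741, 3.03 and 0.959 in low and 0.979, 3.69 and 1.46 in high nuclei, and 0 of 7 were called, with 5 higher in 3 of 3 mice. By the 8-gene score they were at 0.739, 2.22 and 1.13 in low and 0.609, 3.88 and 1.33 in high nuclei, lower on the high side of mouse 1. Of 8 markers of oligodendrocytes and their precursors, Pdgfra, a precursor marker, rose by the 5-gene score (1.34 ± 0.27, SE). The summed list was then at 1.80, 3.97 and 1.33 in low and 1.99, 4.31 and 1.36 in high nuclei. No marker was at 0 in all sums.

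Leaving out nuclei with 5 or more UMIs per 10000 of granule, CA3 and mossy, CA2 and subicular, or inhibitory markers brought the CA2 and subicular sum to 0.419 to 0.762 on the low and 0.497 to 0.687 on the high side of the 8-gene split. By the 5-gene score edgeR then called 87 of 12391 genes (0.702%), 51 higher (0.412%) and 36 lower (0.291%), and 62 of the 272 called before were among them. The immediate early factors Egr3, Egr4 and Npas4 and the secreted and synaptic genes Nptx2, Nrn1 and Vgf were called higher then. Egr3 was at 0.94 (adjusted p = 0.00667), Npas4 at 0.67 (adjusted p = 0.0244) and Nptx2 at 0.53 (adjusted p = 0.0323) in edgeR. Penk, at 0.86 with an adjusted p of 0.0622, and Tshz2, at -1.01 with an adjusted p of 0.0746, were not. Tshz2 is among the markers by which nuclei were left out. The lowered CA2 and subicular sum and the smaller fall of Tshz2 thus follow in part from the filter and are no test. Over all fits of the 5-gene split the adjusted p ran from 0.000939 for Egr3, 0.0188 for Npas4, 4.72e-05 for Nptx2, 0.00121 for Penk and 0.000494 for Tshz2 up to 1.00 for each, the value without the mouse block. The part that these classes play in the other differences was not tested.

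**Figure D5:**
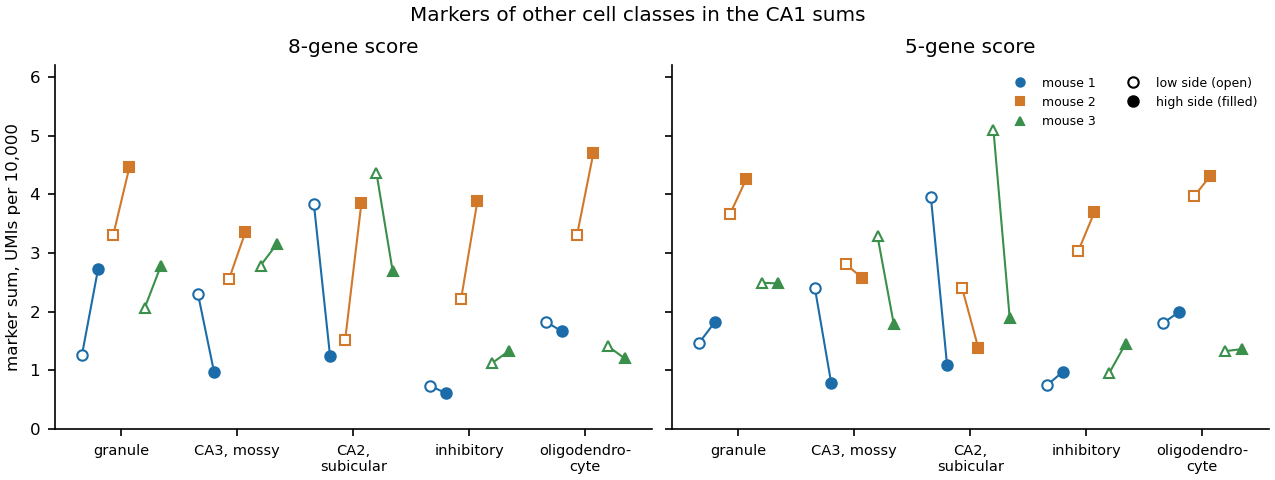
Summed markers of 5 other cell classes per 10000 UMIs in the low (open) and high (filled) CA1 sums of each mouse, for the 8-gene split (left) and the 5-gene split (right). CA2 and subicular markers fall in each mouse by the 5-gene score and go opposite ways between mice by the 8-gene score.

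A higher boundary also gave calls. With high taken from the 90th percentile of the 8-gene score, edgeR called 66 of 12869 genes (0.513%), 37 higher (0.288%) and 29 lower (0.225%). Of the 66, 40 were also among the 272 of the 5-gene score, 60.6% of the former and 14.7% of the latter, all in the same direction. The immediate early factors Btg2, Egr3, Gadd45g, Npas4 and Tiparp rose, 5 of 19, and so did the secreted and synaptic genes Bdnf, Nptx2, Nrn1, Pcsk1, Penk and Scg2, 6 of 26. Penk rose by 1.44 ± 0.20, Npas4 by 0.99 ± 0.13, Pcsk1 by 0.78 ± 0.14 and Bdnf by 0.79 ± 0.13 on the log2 scale (SE, n = 3 mice, edgeR adjusted p of 0.00678, 0.00678, 0.0273 and 0.0194). Over the alternatives of the 8-gene split the adjusted p ran from 1.83e-11 for Penk, 1.21e-06 for Npas4, 0.00636 for Pcsk1 and 0.00204 for Bdnf up to 1.00 for each. Bmpr1b, a BMP receptor, was the lowest of the named genes at -2.91 ± 0.33 (SE). The astrocyte gene Gfap, at 1.94 ± 0.34 (SE), and the granule list gene Glis3 were called higher as well.

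By the 8-gene score the medians were -0.08 for 17 sodium channel genes and partners, -0.07 for 39 potassium channels, -0.10 for 15 calcium and HCN channels, -0.10 for 16 ionotropic glutamate receptors and -0.17 for 11 GABA-A receptors, and 0 were called. Within depth quartiles the medians were 0.035, 0.022, -0.014, 0.0052 and -0.047. By the 5-gene score, Cacna1g, the T-type calcium channel (0.62 ± 0.09, SE, adjusted p = 0.00908), Cacna2d2, a calcium channel auxiliary subunit (0.89 ± 0.17), and the tandem-pore potassium channels Kcnk1 (0.67 ± 0.13) and Kcnk9 (0.62 ± 0.13) rose in edgeR. Kcnip4, a partner of Kv4 channels (-0.58 ± 0.11), and Kcnq5, an M-current channel (-0.85 ± 0.19), fell. Kcnq5 was at 1520, 1096 and 1598 CPM in low and 589, 1052 and 793 CPM in high nuclei, with hardly a gap in mouse 2. Over all genes 0.832% were called higher and 1.15% lower. Of 15 calcium and HCN channels, the 2 calls became 0 without mouse 1 and 1 without mouse 3, and stayed 2 within depth quartiles. Of 39 potassium channels, the 2 called higher became 0 without mouse 1 or 3, within depth quartiles, with DESeq2 and with doublets removed. The 2 called lower became 0 without mouse 1 or 3 and with doublets removed, and 1 within depth quartiles and with DESeq2. No sodium channel gene was called by either score, at 16 tested by the 5-gene score.

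Heat shock, stress and RNA quality genes were tested as a list of their own. By the 8-gene score, of 16 tested, 5 had an unadjusted p under 0.05 on the high side and 0 on the low side, with a median log2 difference of 0.22 and 10 higher in 3 of 3 mice. Atf4, the factor of the integrated stress response, was at 22.9, 15.2 and 15.8 CPM in low and 34.2, 27.0 and 24.6 CPM in high nuclei. Hspa8, a constitutive chaperone, differed by 0.46 ± 0.12 (SE). Within depth quartiles 2 of 16 had an unadjusted p under 0.05 and the median was 0.13. By the 5-gene score 0 were called, but 7 of 16 had an unadjusted p under 0.05 on the high side (background 7.65%) and 0 on the low side. The median was then 0.26, and 9 were higher in 3 of 3 mice.

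Dentate granule nuclei, 1931 by an equivalent rule (1130, 639 and 162), were split by the same score to ask whether the contrast differed from that in CA1. An interaction term in edgeR called 0 of 14054 genes (0% called), and DESeq2 called 5. At an unadjusted p under 0.05 in edgeR, the difference (CA1 minus granule) was positive for 557 genes (3.96%) and negative for 192 (1.37%). A positive difference can come from a rise in CA1 or from a fall in granule nuclei. The difference for Npas4 was -0.27 ± 0.25, for Nptx2 -0.04 ± 0.34, for Penk 0.46 ± 0.32 and for Pcsk1 0.16 ± 0.20 on the log2 scale (SE, CA1 minus granule). A p that misses the threshold does not show that the classes respond alike. The 5 genes with the smallest p were Elovl7, Lpar1, Abca1, Rab31 and Rnf220, all with an adjusted p of 0.228. Their high against low log2 differences were 0.32, 0.64, 0.56, 0.18 and -0.028 in CA1. In granule nuclei they were -1.91, -1.51, -0.90, -1.66 and -1.79. Markers of oligodendrocytes and their precursors were at 8.14, 9.74 and 18.9 per 10000 UMIs in low and 2.16, 7.09 and 4.36 in high granule nuclei. With granule nuclei at 5 or more per 10000 of these left out, 0 of 13662 genes were called (0% called). The CA1 minus granule difference of Elovl7 then went from 2.21 to 0.58, of Lpar1 from 2.13 to 0.35 and of Rab31 from 1.84 to 0.55. That of Rnf220 went from 1.76 to -0.17 and that of Abca1 from 1.45 to 1.20 (adjusted p = 0.698 in edgeR).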

How the data were processed

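The files deposited by the authors give UMI counts, not normalized, for every gene in every barcode. Cell Ranger 7.0.0 made those of mice 1 and 2 and 7.1.0 those of mouse 3, per the file headers. The submitters' processing notes name mm10. Whether intronic reads entered the counts was not given in the sources used here. The libraries held 100230288, 50931257 and 140527761 UMIs, with medians of 8859, 1711 and 25775 per barcode; 36, 13 and 25 barcodes were shared between pairs of libraries (mice 1 and 2, 1 and 3, 2 and 3), 1 of them of CA1 nuclei. The number of UMIs limits the precision of low genes, above all in mouse 2.

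Raw counts were summed per mouse and side and tested with edgeR 4.0.16 (R 4.3.3): TMM scaling, filterByExpr, quasi-likelihood F test, a block for the mouse, Benjamini-Hochberg adjusted p-values over the whole fit, called under 0.05. The replicate is the mouse, and the block takes out the level of each mouse. The p-values thus rest on how far the difference between high and low sides varied among 3 mice. The 2 sums of a mouse come from 1 animal, and after removal of side means they correlated at 0.644, 0.402 and 0.761 across genes in mice 1, 2 and 3. SEs are the log2 difference over the root of F. DESeq2 1.42.0 was an alternative. On simulated counts for this contrast (13691 genes), 68 of 99 genes changed by 1 on the log2 scale and 95 of 98 changed by 2 were recovered, with 3 of 13494 unchanged genes called. The simulation gave all genes the same fixed spread (dispersion), so these shares may not hold for the real counts.

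Scrublet in scanpy 1.11.5 marked the highest doublet scores at 0.8% per 1000 barcodes; marked nuclei were kept, and left out in an alternative. Named genes were those on a list of 12 anchors, up to 10 called in each direction with the same direction in 3 of 3 mice and 10 or more UMIs in each of the 6 sums, called members of the gene lists, the 8 score genes and the 5 smallest p of the interaction. The parts that need a call named 0 genes by the 8-gene score and were applied to the 5-gene score. Other genes named (Penk, Egr2, Nfil3, Btg2, Sik1, Pim1, Bmpr1b and others) were chosen after their values were seen. Not every gene that the rule names is reported here. The members, gene lists and scores were chosen with earlier results of these data known. The alternatives were other tests, scaling, filters, cuts, gates and scores, depth quartiles, thinning to 1000 UMIs, and each mouse left out. Gene starts and promoter bases come from RefSeq tables of GRCm38.p6.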

Additional observations from a re-analysis of the deposited data

How the results depend on the processing

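The count of 0 called genes by the 8-gene score held without mouse 1 or 3, without the replicate block (0 called), with RLE scaling, thinning, depth quartiles, doublets removed, the stricter gate, other-class nuclei left out and the Nr4a score. It became 1 with DESeq2 (Penk) and 1 with low taken to the 20th percentile (Npas4), 66 from the 90th percentile, 209 without the low-count filter and 272 with the score without Nr4a genes; leaving out 1 mouse gave 0 to 42, the 42 without mouse 2. The score genes left out of their own score gave 0 to 4 calls when 1 mouse was left out, the 4 without mouse 2. By the 5-gene score the 272 calls became 162 with DESeq2, 151 within depth quartiles, 87 with other-class nuclei left out, 37 with doublets removed, 0 without the replicate block and 88 to 294 when 1 mouse was left out (88 without mouse 1, 105 without mouse 3); these alternatives were chosen after seeing the data. The interaction with granule nuclei called 5 genes in DESeq2 (Elovl7, Mog, Prr5l, Rab31 and Rnf220), 3 after thinning (Ano4, Pde4b and Phlpp1) and 0 to 6 when 1 mouse was left out. The cause of these moves was not tested. Among named genes, 617 values kept direction and their side of the threshold, whatever their size, 85 gained a call and 22 turned direction. After thinning these were Egr3 (-0.11), Dusp14 (-0.28), Glis3 (-0.065), Fosb (-0.41) and Junb (-0.096) left out of their own scores, and Grik1 (0.34). Grik1 also turned with other-class nuclei left out (0.56, and 0.33 within depth quartiles), where Glis3 turned within depth quartiles (-0.060). Glis3 is itself among the markers by which those nuclei were left out. Leaving out 1 mouse gave -0.14 to 0.41 for Sorcs3 and -0.11 to 0.080 for Scn8a (both lowest without mouse 3), -1.64 to 0.14 for Tshz2 and -0.55 to 0.18 for Kcnq5 (both highest without mouse 1), -1.57 to 0.028 for Grik1 (highest without mouse 3) and -0.33 to 0.33 for Nr4a3 left out of its score (lowest without mouse 1). Sorcs3 turned with the stricter gate (-0.030). Scn8a turned with no filter (-0.033), from the 90th percentile (-0.026), with the stricter gate (-0.015) and without Nr4a genes (-0.012). Ndst4 (0.031) and Scn1a (0.033) turned with the Nr4a score. Depth limits mouse 2 most, where a high nucleus had a median of 2 score UMIs.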
